A study of Mus musculus with 4 samples.

Results

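The lysosomal cathepsins are the main proteases of the lysosome, the acidic compartment in which proteins taken up by endocytosis or delivered by autophagy are broken down. The 10 genes considered here were Ctsa, Ctsb, Ctsc, Ctsd, Ctsf, Ctsh, Ctsk, Ctsl, Ctss and Ctsz, listed by name. Of the 13085 genes measured in the series, 6 were members with a value: Ctsa, Ctsb, Ctsd, Ctsk, Ctsl and Ctsz. Ctsc, Ctsf, Ctsh and Ctss were not analysed here.

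RNA was sequenced from 4 stable lines of 3T3-L1, a mouse preadipocyte line that turns into adipocytes under hormonal induction, in a study of CACUL1 as a regulator of PPARγ, the nuclear receptor that drives adipocyte differentiation. The FLAG line carried the empty FLAG vector and the FLAG-CACUL1 line overexpressed CACUL1 with a FLAG tag, both selected with G418. The sh-Luc line carried a hairpin against luciferase, which these cells do not express, and the sh-CACUL1 line a hairpin against Cacul1, both selected with hygromycin B. All 4 lines were grown from resistant colonies and taken on day 8 of adipogenesis, begun with insulin (5 μg/ml), the glucocorticoid dexamethasone (1 μg/ml), the phosphodiesterase inhibitor IBMX (0.5 mM) and the PPARγ agonist rosiglitazone (5 μM). Although the labels call the cells preadipocytes, all had therefore been induced, and the promoter that drives each construct and the number of clones behind each line are not given in the sources used here.

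There was 1 sample per line. A difference between lines therefore had no replicate check, no test was run and no p-value is given. Values are FPKM, fragment counts scaled by transcript length and library size, which allow genes to be compared per length. Folds are ratios of FPKM. A gene is called higher or lower when log2(FPKM + 1) differed by at least 1, that is 2-fold on that scale, which understates the difference of low genes. The steps in the low values placed the depth at about 14.5, 14.2, 24.1 and 14.9 times 1000000 fragments in the order FLAG, FLAG-CACUL1, sh-Luc, sh-CACUL1, which is kept for every run of 4 values. The 95% intervals given in parentheses after folds (exact Clopper-Pearson) cover the counting of these estimated fragments only. They say nothing of the spread between cultures. The fragments behind a cathepsin value ranged from 624 for Ctsk in sh-CACUL1 cells to 39478 for Ctsd in FLAG-CACUL1 cells. Cacul1 itself, on the minus strand of chr19:60524696-60581025, was at 9.61, 11.8, 10.2 and 5.39 FPKM, a log2 difference of 0.27 in FLAG-CACUL1 against FLAG and of -0.82 in sh-CACUL1 against sh-Luc cells. Both differences have the sign that the labels give, and neither reached 2-fold. The median log2 difference of all genes was 0.09 in the first comparison and -0.30 in the second. In bulk samples, fewer cells of a type and less RNA per cell cannot be told apart.

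Cathepsins are made as inactive proenzymes in the endoplasmic reticulum and carried to the lysosome, largely by mannose 6-phosphate receptors, where the acid pH and other proteases release the mature enzyme. They are sorted by the residue that does the cutting. Ctsd is an aspartic protease, Ctsa a serine carboxypeptidase, and Ctsb, Ctsk, Ctsl and Ctsz are papain-like cysteine proteases, held in check by cystatins. Transcription of many lysosomal genes is driven by TFEB, TFE3 and MITF, which bind E-box sequences with the core CACGTG.

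As deposited, all 6 measured cathepsins were lowest in sh-CACUL1 cells, and 5 of them, all but Ctsa, were highest in FLAG-CACUL1 cells. Ctsk was nearly as low in FLAG cells and Ctsz in sh-Luc cells, and neither stayed lowest in sh-CACUL1 cells after the rescalings given below. The summed level of the 6 was 1890 FPKM in FLAG, 3614 FPKM in FLAG-CACUL1, 1636 FPKM in sh-Luc and 534 FPKM in sh-CACUL1 cells. The controls thus lay between the lines with more and with less Cacul1, at 1.91-fold below FLAG-CACUL1 for FLAG and 3.06-fold above sh-CACUL1 for sh-Luc. As a share of all FPKM in the sample, the sum was 0.401%, 0.763%, 0.393% and 0.143%. Both controls were near the same share.

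With FLAG-CACUL1 against FLAG, 3 of the 6 members were at least 2-fold higher (Ctsd, Ctsk and Ctsl) and 0 lower, where 7.51% of all genes were called higher and 7.22% lower. With sh-CACUL1 against sh-Luc, 5 of the 6 were at least 2-fold lower (all but Ctsz) and 0 higher, where 16.4% of all genes were called lower and 4.94% higher. The median log2 difference of the members was 0.84 in the first comparison and -1.63 in the second. Of the 6 members, 3 were called in both, higher with FLAG-CACUL1 and lower with sh-CACUL1, as were 3.02% of all genes. Opposite signs in the 2 comparisons were seen for 5 of the 6 members and for 59.5% of all genes as deposited. The 5 include Ctsz, at -0.05 with sh-CACUL1, and the count of members was 4 after each rescaling given below. Opposite signs alone were thus common. Being lowest in sh-CACUL1 cells was seen for 41.6% of all genes, and being highest in FLAG-CACUL1 cells was seen for 21.8%. Among the 1387 genes with a mean of at least 50 FPKM, a band chosen after seeing the data to match the level of the cathepsins, 10.7% were called higher with FLAG-CACUL1, 21.8% lower with sh-CACUL1 and 5.84% both. In that band 66.5% had opposite signs, 44.8% were lowest in sh-CACUL1 cells and 28.0% were highest in FLAG-CACUL1 cells.

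**Figure D1:**
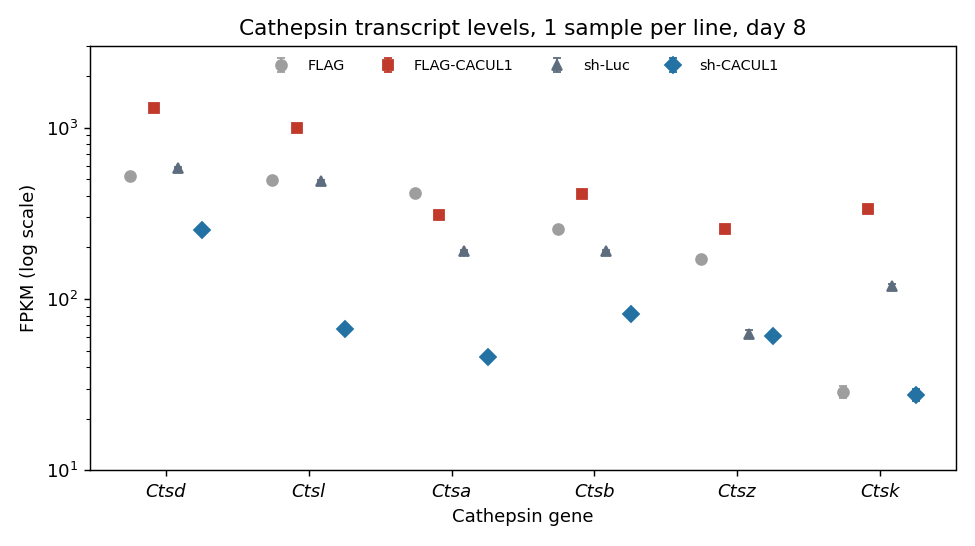
FPKM (log axis) of the 6 measured cathepsins in the 4 lines, 1 point per sample, with bars for the 95% counting interval where wider than the point. Every cathepsin has its lowest point in sh-CACUL1 cells, with Ctsz at 60.8 FPKM there and 62.8 FPKM in sh-Luc cells, and Ctsk has nearly the same level in FLAG and sh-CACUL1 cells, 28.7 and 27.7 FPKM.

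Some calls depended on how the samples were scaled. Scaled by the median of ratios, which brings the median difference of all genes to 0.01 in that comparison, 3 members were still at least 2-fold lower with sh-CACUL1: Ctsa at -1.56, Ctsk at -1.60 and Ctsl at -2.38 on the log2 scale, where 7.45% of all genes were called lower. Ctsb at -0.75 and Ctsd at -0.74 then missed the 2-fold cut-off. With the same scaling 2 members were at least 2-fold higher with FLAG-CACUL1, Ctsd at 1.17 and Ctsk at 3.37, while Ctsl stood at 0.87 and 5.77% of all genes were called higher. Of all called genes in the knockdown comparison, 76.8% were lower as deposited, 47.9% after quantile normalization and 44.2% after median-of-ratios scaling. In the overexpression comparison 49.0% were lower as deposited and 60.8% after median-of-ratios scaling. After each of these rescalings, and after setting the FPKM sums equal, Ctsk was lowest in FLAG and Ctsz in sh-Luc cells, and the other 4 remained lowest in sh-CACUL1 cells.

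The promoters of the members were read for the E-box, because it is the sequence that the lysosomal transcription factors bind. RefSeq (GRCm38.p6) windows, from 250 bases before to 50 after the annotated start, were held for 8 of the 10 members, all but Ctsb and Ctsh. CACGTG, which reads the same on both strands, was present in 4 of these 8 (Ctsa, Ctsd, Ctsf and Ctsl) and in 2187 of 27025 genes with a window (8.09%). The longer TCACGTGA, which contains CACGTG and also reads the same on both strands, was present in Ctsa and Ctsd and in 304 genes (1.12%). The windows are shown from their first base to 30 bases after the start, 5′ to 3′ on the strand of the gene, for 3 measured members with a match and for Ctsk, which had the largest difference with FLAG-CACUL1 and no match. Capitals mark CACGTG. Ctsa is the second of its annotated starts, at chr2:164833523-164833802 on the plus strand. Ctsd lies at chr7:142387798-142388077 on the minus strand, Ctsl at chr13:64370491-64370770 on the minus strand and Ctsk at chr3:95498960-95499239 on the plus strand.
Ctsa: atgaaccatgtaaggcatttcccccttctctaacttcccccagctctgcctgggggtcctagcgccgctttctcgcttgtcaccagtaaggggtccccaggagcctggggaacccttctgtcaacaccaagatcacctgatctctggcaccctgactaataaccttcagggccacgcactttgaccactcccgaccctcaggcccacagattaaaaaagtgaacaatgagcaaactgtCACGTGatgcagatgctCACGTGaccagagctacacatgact
Ctsd: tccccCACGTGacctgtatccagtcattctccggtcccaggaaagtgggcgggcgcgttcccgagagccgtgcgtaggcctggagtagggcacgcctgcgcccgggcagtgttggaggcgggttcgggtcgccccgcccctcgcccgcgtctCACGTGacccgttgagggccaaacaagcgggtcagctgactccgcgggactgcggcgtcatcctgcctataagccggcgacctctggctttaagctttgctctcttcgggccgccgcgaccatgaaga
Ctsl: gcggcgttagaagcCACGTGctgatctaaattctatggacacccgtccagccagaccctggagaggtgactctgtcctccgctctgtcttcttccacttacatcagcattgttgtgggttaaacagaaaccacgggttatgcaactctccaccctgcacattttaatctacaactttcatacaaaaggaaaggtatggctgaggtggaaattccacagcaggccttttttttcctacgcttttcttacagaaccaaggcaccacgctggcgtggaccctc
Ctsk: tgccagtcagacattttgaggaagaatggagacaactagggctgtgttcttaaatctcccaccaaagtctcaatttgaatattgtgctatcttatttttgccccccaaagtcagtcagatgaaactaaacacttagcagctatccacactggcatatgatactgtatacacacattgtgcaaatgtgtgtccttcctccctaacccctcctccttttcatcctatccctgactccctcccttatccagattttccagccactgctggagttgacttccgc
Counted from the start, the matches began at -12 and 5 in Ctsa, at -245 and -98 in Ctsd and at -236 in Ctsl. Ctsz, like Ctsk, held none. The Ctsl window and the Ctsa window shown lie wholly inside the gene spans given below, downstream of where those spans start. Whether these 2 windows act as promoters in these cells was not tested. A match is a run of letters and not a measured binding site, and a window without one says nothing of the factors that act on the gene.

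Ctsd, the main aspartic protease of the lysosome, was the most abundant cathepsin in every line. In the GENCODE annotation of GRCm38 (mm10), used for all gene positions here, it lies on the minus strand of chr7:142375911-142388038 and has 9 exons. Its level was 525 FPKM in FLAG, 1307 FPKM in FLAG-CACUL1, 583 FPKM in sh-Luc and 251 FPKM in sh-CACUL1 cells. The controls were near each other, with the overexpression line above both and the knockdown line below both. Ctsd was 2.49-fold higher in FLAG-CACUL1 than in FLAG cells (2.44 to 2.53) and 2.32-fold lower in sh-CACUL1 than in sh-Luc cells (2.26 to 2.38). The log2 differences were 1.31 and -1.21, and FLAG differed from sh-Luc by -0.15. Against the control of the other vector they were 1.16 and -1.06 as deposited, and not all of these calls held after rescaling. Its exons share 808 bases with those of Gm49369 on the same strand, which was not analysed here.

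Ctsl, an endopeptidase of the papain family, had the largest difference with the hairpin among the 6. It lies on the minus strand of chr13:64359337-64370890 and has 8 exons. FLAG cells were at 493 FPKM, FLAG-CACUL1 cells at 992 FPKM, sh-Luc cells at 488 FPKM and sh-CACUL1 cells at 66.8 FPKM. The controls differed by 0.01 on the log2 scale, the least of any member. Ctsl was 7.31-fold lower in sh-CACUL1 cells (6.98 to 7.66; log2 difference -2.85) and 2.01-fold higher in FLAG-CACUL1 cells (1.97 to 2.05; log2 difference 1.01). The second value sits on the 2-fold cut-off, and stood at 0.87 after median-of-ratios scaling. Gm47123, an antisense gene not analysed here, shares 1742 exon bases with Ctsl, the pseudogene Gm49230 shares 395, and whether strand was used in counting is not given in the sources used here.

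Ctsb, a cysteine protease that both cuts within chains and trims their ends, was, like Ctsd, highest in FLAG-CACUL1 and lowest in sh-CACUL1 cells, at lower levels. It lies on the plus strand of chr14:63122462-63145923 and has 10 exons. The values were 258 FPKM in FLAG, 411 FPKM in FLAG-CACUL1, 191 FPKM in sh-Luc and 81.5 FPKM in sh-CACUL1 cells. It was 2.35-fold lower in sh-CACUL1 cells (2.28 to 2.42; log2 difference -1.22), and 1.60-fold above FLAG in FLAG-CACUL1 cells (1.57 to 1.63; log2 difference 0.67), which is under the cut-off. The 4 values of Ctsb and Ctsd had the most similar pattern of any member pair, at a distance of 0.523 between their centred log2(FPKM + 1) values. Ctsb shares 774 exon bases with Fdft1 on the other strand.

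Ctsz, a carboxypeptidase of the papain family, was the only member not called with sh-CACUL1. It lies on the minus strand of chr2:174427493-174439039 and has 6 exons. Its level was 171 FPKM in FLAG, 257 FPKM in FLAG-CACUL1, 62.8 FPKM in sh-Luc and 60.8 FPKM in sh-CACUL1 cells. Both G418 lines were above both hygromycin B lines, as they also were for Ctsa and Ctsb. Ctsl had that order as deposited, but its controls differed by only 0.01 on the log2 scale. The Ctsl control difference became -0.33 after quantile normalization, -0.17 with equal FPKM sums and 0.31 after median-of-ratios scaling. For Ctsz the ratio of sh-CACUL1 to sh-Luc was 0.967 (0.903 to 1.04), an interval that includes no difference in counting terms. FLAG-CACUL1 was 1.51-fold above FLAG (1.44 to 1.57; log2 difference 0.59), under the cut-off, and the controls differed by 1.43 on the log2 scale. Against sh-Luc in place of FLAG, the FLAG-CACUL1 difference of Ctsz was 2.02.

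Ctsk, the collagen-degrading cathepsin best known from osteoclasts and also made by fibroblasts, was the least abundant member in FLAG and sh-CACUL1 cells and had the largest difference with FLAG-CACUL1. It lies on the plus strand of chr3:95499256-95509362 and has 8 exons. FLAG cells were at 28.7 FPKM, FLAG-CACUL1 cells at 337 FPKM, sh-Luc cells at 119 FPKM and sh-CACUL1 cells at 27.7 FPKM. The FLAG control and the knockdown line were alike, with a ratio of sh-CACUL1 to FLAG of 0.964 (0.861 to 1.08). Ctsk was 11.7-fold higher in FLAG-CACUL1 than in FLAG cells (10.8 to 12.8; log2 difference 3.51) and 4.30-fold lower in sh-CACUL1 than in sh-Luc cells (3.96 to 4.69; log2 difference -2.06). FLAG was itself 4.15-fold below sh-Luc (3.81 to 4.51), a gap between controls about as wide as the knockdown difference. Against sh-Luc, FLAG-CACUL1 was 2.83-fold higher.

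Ctsa, a carboxypeptidase that also shields the β-galactosidase and neuraminidase of the lysosome from degradation, had its highest level in a control. It lies on the plus strand of chr2:164832873-164841032 and has 16 exons. Its level was 415 FPKM in FLAG, 311 FPKM in FLAG-CACUL1, 191 FPKM in sh-Luc and 46.0 FPKM in sh-CACUL1 cells. It was 4.16-fold lower in sh-CACUL1 than in sh-Luc cells (3.98 to 4.34; log2 difference -2.03). In FLAG-CACUL1 against FLAG its log2 difference was -0.42, the only negative one among the members, and against sh-Luc it was 0.70. The sign of the overexpression difference of Ctsa thus turns on which control is used. Its exons share 495 bases with Pltp and 324 with Neurl2, and Pltp, on the opposite strand, was at 110 FPKM, 135 FPKM, 62.6 FPKM and 23.6 FPKM.

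**Figure D2:**
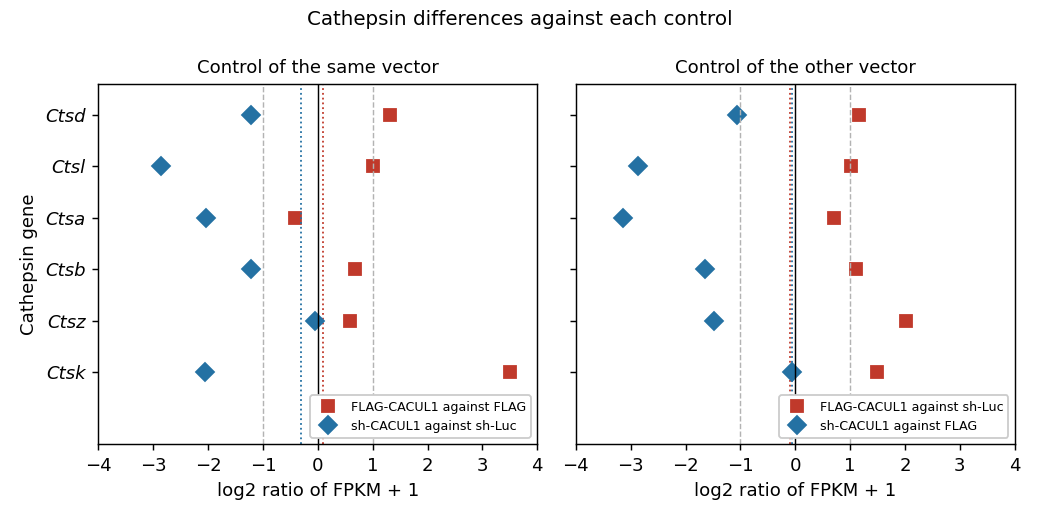
Difference in log2(FPKM + 1) of each cathepsin in FLAG-CACUL1 (squares) and sh-CACUL1 cells (diamonds), 1 sample per line, against the control of the same vector (left) and of the other vector (right), with grey dashed lines at the 2-fold cut-off and dotted lines at the median of all genes. Ctsd and Ctsl reach the cut-off in both panels, while the Ctsk diamond moves from -2.06 to -0.05 and the Ctsa square from -0.42 to 0.70 when the control is exchanged.

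The controls differed from each other for 3 of the 6 members: Ctsa and Ctsz were at least 2-fold higher in FLAG than in sh-Luc cells, and Ctsk was at least 2-fold lower. Among all genes 8.58% were called higher and 12.4% lower in that comparison. These lines differ by vector, selection drug and culture, whose parts cannot be told apart. They also differed in adipocyte markers, given below. With the controls exchanged, FLAG-CACUL1 against sh-Luc called 5 members higher, all but Ctsa, where 5.04% of all genes were called higher. sh-CACUL1 against FLAG called 5 members lower, all but Ctsk, where 15.4% of all genes were called lower. As deposited, Ctsd and Ctsl were called with either control in both lines, and not between the controls. Rescaled, the exchanged comparisons lost calls. The 5 higher became 2 (Ctsk and Ctsz) after quantile normalization and with equal FPKM sums, where 5.49% and 3.97% of all genes were called higher, and stayed 5 after median-of-ratios scaling. With FLAG-CACUL1 against sh-Luc, Ctsd was at 0.85 and 0.98 and Ctsl at 0.73 and 0.83 after quantile normalization and with equal sums. The 5 lower became 4 under each of the 3 rescalings, with Ctsd missing the cut-off at -0.70 to -0.88.

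Ratios between the FPKM of members within a sample do not depend on a factor that scales the whole sample, and they showed that the make-up of the cathepsin pool differed as well as its size. Ctsl was at 0.938, 0.759 and 0.837 of Ctsd in FLAG, FLAG-CACUL1 and sh-Luc cells and at 0.266 in sh-CACUL1 cells. Ctsl therefore stood out as low in the knockdown line even beside a Ctsd level that was low itself. Ctsk was at 0.0546 of Ctsd in FLAG cells, 0.258 in FLAG-CACUL1 cells, 0.204 in sh-Luc cells and 0.110 in sh-CACUL1 cells. Ctsa was at 0.790 of Ctsd in FLAG cells and between 0.183 and 0.327 in the other 3. Ctsb was steadier, at 0.490 of Ctsd in FLAG cells and between 0.315 and 0.328 in the others. As a share of the summed cathepsin FPKM, Ctsd made up 27.8%, 36.2%, 35.7% and 47.1% and Ctsl 26.1%, 27.4%, 29.9% and 12.5%.

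**Figure D3:**
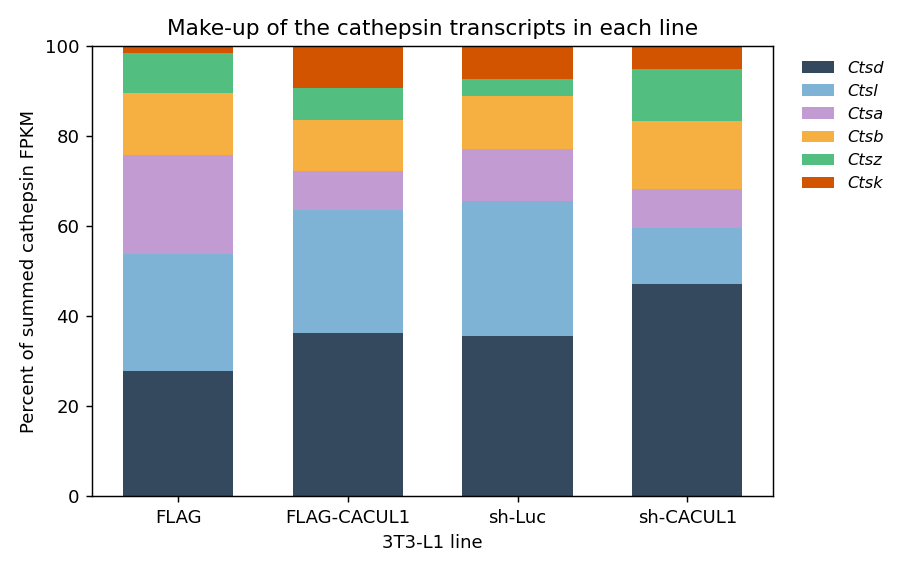
Share of each cathepsin in the summed FPKM of the 6 measured members (stacked bars, percent, 1 bar per sample). Ctsd takes the largest share in every line, reaching 47.1% in sh-CACUL1 cells, where Ctsl is at 12.5% against 26.1% to 29.9% elsewhere.

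Inhibitors of cathepsins and related proteases were mostly lower in the knockdown line too. Of the 7 genes listed as cathepsin inhibitors, 5 had a value, and 4 of these were at least 2-fold lower with sh-CACUL1 (1 after median-of-ratios scaling). Of all genes, 16.4% were called lower (7.45% after that scaling). Cst3, the secreted cystatin C, was at 923 FPKM in FLAG, 1175 FPKM in FLAG-CACUL1, 1494 FPKM in sh-Luc and 552 FPKM in sh-CACUL1 cells, a log2 difference of -1.44 in the knockdown comparison and 0.35 in the overexpression one. Cstb, the cytosolic stefin B, differed by -1.54 and 0.65. Both serpins Serpinb6a (-1.24) and Serpinb1a (-1.10) were lower in sh-CACUL1 cells, and both differed by 0.21 or less in size with FLAG-CACUL1. Serpina3g, a serpin that inhibits cysteine cathepsins, was the 1 inhibitor called higher with FLAG-CACUL1, at 6.08, 54.0, 0.183 and 0.814 FPKM, a log2 difference of 2.96. The summed FPKM of the 4 cysteine cathepsins divided by that of Cst3 and Cstb was 0.796, 1.25, 0.463 and 0.349. Relative to these 2 inhibitors, cysteine cathepsin RNA was thus highest in FLAG-CACUL1 and lowest in sh-CACUL1 cells. The controls, at 0.796 and 0.463, differed by a larger ratio than either CACUL1 line did from its own control.

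Among 5 genes for activation or for protein partners of cathepsins, 2 were at least 2-fold lower with sh-CACUL1 and 1 higher with FLAG-CACUL1 (1 and 0 after median-of-ratios scaling). The shares of all genes were 16.4% and 7.51% (7.45% and 5.77% after that scaling). Lgmn, the asparaginyl protease legumain that processes proenzymes of cathepsins, was at 125, 154, 67.9 and 25.1 FPKM. Its log2 difference was -1.40 with sh-CACUL1 and 0.30 with FLAG-CACUL1. Psap, the precursor of the saposins that help lysosomal enzymes act on lipids, was at 974, 2087, 1626 and 525 FPKM and was called in both comparisons, at 1.10 and -1.63. Its level exceeded that of any cathepsin in every line. Neu1 and Glb1, the partners that Ctsa shields, did not pass the cut-off in either comparison, with differences of 0.61 and -0.77 for Neu1 and of 0.20 and 0.35 for Glb1. Gm2a, the GM2 activator, differed by -0.21 and -0.15. Glb1 stood at 17.5 FPKM in sh-Luc and 22.5 FPKM in sh-CACUL1 cells while Ctsa was 4.16-fold lower.

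Ctso, the 1 other cathepsin with a value of 12 listed, was at 9.81, 12.2, 11.9 and 13.3 FPKM, below each of the 6 members in every line, and was not called in either comparison (0.29 and 0.14). The other lysosomal lists differed in how many genes were called lower with sh-CACUL1, beside 16.4% of all genes (7.45% after median-of-ratios scaling). With FLAG-CACUL1, 7.51% of all genes were called higher and 7.22% lower (5.77% and 8.93% after that scaling). Of 31 other hydrolases, 20 were at least 2-fold lower with sh-CACUL1 and 0 higher, with a median log2 difference of -1.38, and 8 were higher with FLAG-CACUL1 and 0 lower, with a median of 0.29. Scaled by the median of ratios, 14 of the 31 were called lower in the knockdown comparison, and 7 higher and 2 lower in the overexpression one. Dpp7, a dipeptidyl peptidase, was at 2.43 with FLAG-CACUL1, and Lipa, the acid lipase, was at -0.91 and missed the cut-off. Fuca1, at -0.05, and Dnase2a, at -0.11, were the least negative in the knockdown comparison. As deposited, all 31 had a value below 0 there, as had 68.7% of all genes, whose median was -0.30.

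Of 17 lysosomal membrane genes, 10 were at least 2-fold lower with sh-CACUL1 and 0 higher. After median-of-ratios scaling 2 were lower and 1 higher, so the count for this group turned on the scale. Cd63, a tetraspanin of lysosomes and multivesicular bodies, was 1.27 higher on the log2 scale with FLAG-CACUL1, and Clcn7, a chloride-proton exchanger, 1.01 higher. The most negative values there were those of Cd164 (-0.96) and Sidt2 (-0.62). Scarb2, the receptor that carries glucocerebrosidase to lysosomes, was at -1.58 with sh-CACUL1 and Laptm4b at -1.50, while Sidt2 was at 0.81 and Npc2, a cholesterol carrier, at 0.37. Among 15 genes of the V-ATPase, the proton pump that acidifies the lysosome, 3 were higher with FLAG-CACUL1 (median 0.50) and 2 lower with sh-CACUL1 (median -0.46), and after median-of-ratios scaling 1 was higher and 0 lower, with medians of 0.37 and 0.01. The highest of the pump genes with FLAG-CACUL1 were Atp6ap2 (1.17) and Atp6v1d (1.13), and the lowest Atp6v1b2 (0.02) and Atp6v0b (0.09). With sh-CACUL1 the values ran from Atp6v1a (-1.36) and Atp6v1h (-1.01) to Atp6v1e1 (0.0014) and Atp6v0e (0.22). Of 12 sorting genes, 5 were lower with sh-CACUL1 (3 after median-of-ratios scaling). Igf2r, the large mannose 6-phosphate receptor, differed by 1.04 in the overexpression and -1.54 in the knockdown comparison. M6pr, the small one, was at -0.88 and 0.06. Vps26a, a subunit of the retromer that returns receptors from endosomes, was at 0.87 and -1.71. Sort1, the sorting receptor sortilin, was the 1 gene called lower with FLAG-CACUL1 (-1.09), Nagpa, which uncovers the mannose 6-phosphate tag, was at -1.59 with sh-CACUL1, and Gga3 at -0.01.

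**Figure D4:**
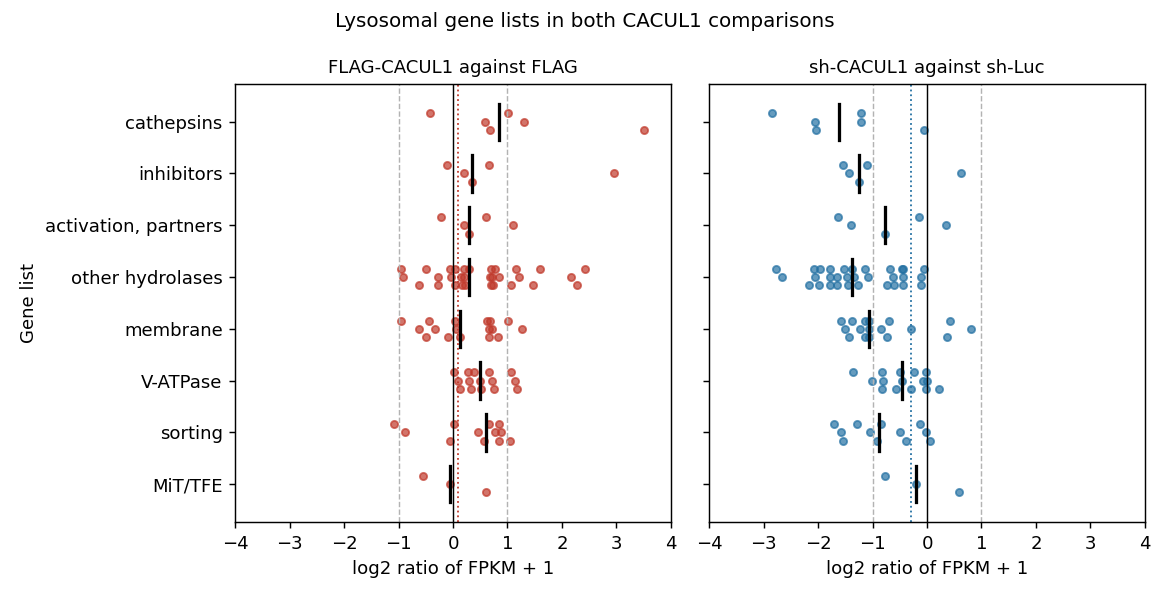
Difference in log2(FPKM + 1) of each gene (points) of the cathepsins and 7 other lysosomal lists in FLAG-CACUL1 against FLAG (left) and sh-CACUL1 against sh-Luc (right), 1 sample per line, with a black bar at the list median, grey dashed lines at the 2-fold cut-off and a dotted line at the median of all genes (0.09 and -0.30). On the right the cathepsins sit at a median of -1.63, the other hydrolases at -1.38 and the V-ATPase genes at -0.46.

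The 3 regulators of lysosomal genes with a value were not called in either comparison as deposited, and 1 of them was called higher with sh-CACUL1 after quantile normalization. Tfeb was at 5.61, 3.54, 4.01 and 6.51 FPKM, log2 differences of -0.54 and 0.58. Tfe3 differed by 0.60 and -0.21, and Mitf by -0.05 and -0.77. RNA levels do not show where these proteins are in the cell, which is how they are chiefly controlled. Genes of the cathepsin, partner, hydrolase, membrane and V-ATPase lists with a promoter window were also divided by whether it held CACGTG, a division chosen after values had been seen. Of the 20 with a match, 15 were at least 2-fold lower with sh-CACUL1, at a median log2 difference of -1.27, and of the 39 without, 13 were, at a median of -0.68. Among all genes 16.4% were called lower. In the overexpression comparison 6 of the 20 and 9 of the 39 were higher, with medians of 0.30 and 0.61, beside 7.51% of all genes. With the sorting genes added, an alternative chosen after seeing the data, 18 of 25 with a match and 14 of 43 without were lower, at medians of -1.33 and -0.68. These contrasts were read on the deposited scale only, and the counts of several of these lists fell after median-of-ratios scaling. No test was made of either contrast, and the members themselves are split between both sides, with Ctsk and Ctsz on the side without.

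The cathepsin differences came beside large differences in adipocyte markers. The 11 adipocyte markers with a value, of 12 listed, summed to 7627 FPKM in FLAG, 462 FPKM in FLAG-CACUL1, 1479 FPKM in sh-Luc and 17162 FPKM in sh-CACUL1 cells. All 11 were at least 2-fold lower with FLAG-CACUL1 and 10 were higher with sh-CACUL1, at medians of -3.96 and 2.48. The shares of all genes were 7.22% and 4.94%. The 10 preadipocyte or fibroblast markers with a value, of 11 listed, summed to 6489, 11173, 4655 and 944 FPKM, most of it from the collagen genes Col1a1, Col1a2 and Col3a1. With FLAG-CACUL1 6 of the 10 were called higher and 1 lower, beside 7.51% and 7.22% of all genes. With sh-CACUL1 7 were called lower and 2 higher, beside 16.4% and 4.94%. Dlk1, a marker of preadipocytes, was at -1.28 with FLAG-CACUL1 and 4.19 with sh-CACUL1, and Thy1 was at 1.74 and 4.41. The adipocyte sum was lowest in FLAG-CACUL1 and highest in sh-CACUL1 cells, while the fibroblast sum, carried by collagens, and the cathepsin sum were both highest in FLAG-CACUL1 and lowest in sh-CACUL1 cells. Between the controls, 9 of the 11 adipocyte markers were called higher in FLAG than in sh-Luc cells (median 2.28), beside 8.58% of all genes. The cathepsin sum was also higher in FLAG than in sh-Luc cells, at 1890 against 1636 FPKM. As a share of all FPKM these sums were close, at 0.401% against 0.393%. The median cathepsin difference between the controls was 0.22 as deposited and 0.51 after median-of-ratios scaling. It was -0.04 after quantile normalization and 0.04 with equal FPKM sums. The fibroblast sum was likewise higher in the FLAG control, at 6489 against 4655 FPKM. The part of these markers in the cathepsin differences was not tested.

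Cathepsins are also abundant in macrophages and, for Ctsk, in osteoclasts, so markers of those cells were read in each line. Of 18 macrophage genes 7 had a value, and they summed to 46.9 FPKM in FLAG, 154 FPKM in FLAG-CACUL1, 12.8 FPKM in sh-Luc and 7.63 FPKM in sh-CACUL1 cells. Most of the FLAG-CACUL1 sum was Lyz2 at 66.5 FPKM, Cd14 at 42.2 FPKM and Cd74 at 41.1 FPKM. Cd68 went the other way, from 16.2 FPKM in FLAG to 1.44 FPKM in FLAG-CACUL1 cells. Of the 7, 4 were called higher and 1 lower with FLAG-CACUL1, beside 7.51% and 7.22% of all genes. Csf1r, another of the 7, was between 0.02 and 0.61 FPKM in all 4 lines. Of 8 osteoclast genes 4 had a value, summing to 22.1, 12.6, 33.4 and 5.56 FPKM, and Mmp9 at 23.1 FPKM in sh-Luc cells made most of the highest sum. The part of the macrophage and osteoclast genes in the cathepsin differences was not tested.

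The genes whose 4 values were most like those of a cathepsin were found by the distance between centred log2(FPKM + 1) values, over 4 samples and 9562 genes. Ctsl was nearest to Lrp1, a large endocytic receptor, at a distance of 0.252, with 143, 328, 145 and 23.7 FPKM. The next were Dpt, Fgf7, Col3a1 and Pdpn, at 0.326 to 0.439. Ctsk was nearest to Svep1, an extracellular matrix protein, at 0.449, with 2.49, 37.3, 14.9 and 3.84 FPKM, and then to Akr1c14, Thbs3, Prss23 and Dpysl3, at 0.506 to 0.829. With 4 samples such nearness is a description of these libraries. Between the members themselves the distances ran from 0.523 for Ctsb and Ctsd to 3.00 for Ctsa and Ctsk.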

How the data were processed

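RNA from 4 stable 3T3-L1 lines (1 sample each) was sequenced and analysed by a company. The deposited FPKM values were made by the authors or their provider and are per RefSeq transcript row. The submitters' processing notes name the mm10 build, while the aligner, quantifier and filters are not given in the sources used here. The 13110 rows were all above 0 in every sample. RefSeq ids were joined to GENCODE M21 symbols, 196 rows without a symbol kept their id, 8 mapped to several symbols, and the 50 rows that shared 25 symbols were summed. Folds are ratios of FPKM, and log2 differences and the 2-fold cut-off used log2(FPKM + 1). Depth was estimated from the spacing of low values, and the procedure was tested on simulated data. Intervals are exact Clopper-Pearson intervals of the estimated fragments at the 95% level. Calls under other scalings, pseudocounts and cut-offs are given in the closing section. Python 3.11.15, numpy 2.4.6, pandas 2.3.3, scipy 1.17.1 and matplotlib 3.10.9 were used. Genes named beside the cathepsins were all those of the inhibitor, partner, other cathepsin and MiT/TFE (Tfeb, Tfe3, Mitf) lists, the 2 with the highest and the 2 with the lowest differences of each other lysosomal list in each CACUL1 comparison among genes of at least 1 FPKM in 1 of the 2 samples, and the 5 genes most alike to the cathepsin with the largest difference in each. Some genes that this rule names are not reported here. Marker genes were named after their values were seen. The cathepsins, the lists and the comparisons were chosen with earlier results of these data known, and the E-box search was chosen after values had been seen.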

Additional observations from a re-analysis of the deposited data

How the results depend on the processing

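In FLAG-CACUL1 against FLAG, the number of cathepsins at or past the cut-off was 3 (14.7% of all genes), and it became 5 with a 1.5-fold cut-off (34.3%), 1 with a 3-fold cut-off (5.07%) and 5 with sh-Luc as the control (9.90%). In sh-CACUL1 against sh-Luc it was 5 (21.3%), and it became 3 with a 3-fold cut-off (7.15%). It also became 3 after median-of-ratios scaling, all of them lower, where 7.45% of all genes were called lower. Between the controls it was 3, and 1 with a 3-fold cut-off (7.60%). These changes of cut-off and scale act by construction, and the cause of the others was not tested. The other alternatives (quantile normalization, equal FPKM sums, pseudocount 0.1 or none, the highest row of a gene, and filters of 1 FPKM) left these counts within 1.5 times. Over 9 settings and both CACUL1 comparisons, 104 of 108 member values kept their sign. The other 4 were Ctsz in sh-CACUL1 against sh-Luc (0.20, 0.42 and 0.11 under quantile, median-of-ratios and equal-sum scaling, from -0.05) and Ctsa in FLAG-CACUL1 with sh-Luc as the control (0.70, from -0.42). The pseudocounts, the highest row and the filters could not change a sign, as each member had 1 row and passed the filters. Only the rescalings and the exchanged control could, and all 4 changes arose there. No paired analysis was possible because each line had 1 sample. With 1 sample per line, depth limits counting error only, and the spread between cultures is unknown.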
